A study of Mus musculus with 11 samples.

Results

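The splicing factors described here are the protein-coding genes of the deposited count table whose symbols begin with Srsf, Prpf, Hnrnp, Sf3a, Sf3b or U2af. The rule found 56 genes among 55486 genes in all, of which 21884 are protein-coding: 11 Srsf, 13 Prpf, 20 Hnrnp, 9 Sf3a or Sf3b and 3 U2af genes. Of these, 53 had enough counts to be tested. Srsf12 had 0 counts in every library, while Prpf40b (0 to 9.57 CPM in treated mice, 0 to 0.761 CPM in controls) and U2af1l4 (0 to 1.78 and 0 to 1.70 CPM) did not pass the filter on low counts. CPM are counts per 1000000 counts, scaled between libraries by the TMM method. Another 3 gene names that match the rule belong to processed pseudogenes and were left out. Srsf3-ps had 9 counts in all libraries together, and the others, both relatives of Hnrnpa1, had 0.

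RNA came from eosinophils, granulocytes of the innate immune system, that were sorted by flow cytometry from heart blood of FVB/N mice. All mice bore metastases that derive from a mammary tumour, and blood was drawn 21 days after treatment began. The treated group is 7 mice that received cisplatin, a DNA-crosslinking drug, with antibodies that block the checkpoint receptors PD1 and CTLA4. The control group is 4 mice that received control antibody alone. The 3 agents were given together, so their shares in any difference cannot be told apart. The sort gate required live cells with CD45, CD11b and F4/80, high side scatter, low Ly6g and no CD3. The sources used here give neither age nor sex of the mice. Each library came from 1 mouse and was made by Smart-seq2, which reads whole transcripts, so long transcripts give more counts per molecule.

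Library totals were 5356118 to 8016658 counts in treated and 3733156 to 6721060 in control libraries. Control 3 and control 4 stood apart. Haemoglobin genes took 28.2% and 20.1% of their counts, against 0.165% to 4.42% in the other 9 libraries, and they had 10775 and 11263 detected genes against 12639 or more. Splicing factor counts made up 0.332% and 0.360% of the total in these 2 libraries, against 0.711% and 0.610% in control 1 and control 2 and 0.521% to 0.667% in treated libraries. All 11 eosinophil markers on the list used were detected in both groups, with a summed level of 3741 to 10803 CPM of the library total in treated and 4557 to 10967 in control libraries. All 10 neutrophil markers summed to 5493 to 13518 and 6128 to 12095 CPM, with Mpo and Elane at 0 in treated libraries. The 13 monocyte and macrophage markers summed to 2069 to 17923 and 974 to 12615 CPM, the 10 B-cell markers to 1412 to 6793 and 544 to 3328 CPM, and the 10 T- and NK-cell markers to 24.5 to 50.8 and 13.7 to 87.3 CPM, with Cd3e, Cd8a and Cd8b1 at 0 in control libraries. The 10 erythroid markers summed to 12547 to 47716 and 1724 to 296993 CPM, and the 11 platelet markers to 961 to 3570 and 294 to 8141 CPM. The part of these other cells in the values below was not tested, except that values without control 3 and control 4 are given. A fit without the erythroid and platelet marker genes is also given. In such bulk samples, fewer cells of a type and less RNA per cell cannot be told apart. The sample identifiers in the table begin with different digits in the 2 groups, so a batch marked by these digits and the treatment cannot be told apart. A second part of the identifiers, their letters, is 1 string in treated 1 and all 4 controls and another in treated 2 to treated 7, so only treated 1 can be set against controls within the same letters. What the digits and letters mark is not stated.

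Pre-mRNA splicing removes introns in steps that different members of these families carry out. SR proteins (Srsf genes) bind exonic enhancers and recruit the U1 snRNP and the U2AF heterodimer to the splice sites, while many hnRNP proteins bind silencer or intronic sites and often act against them. SF3A and SF3B are the protein complexes of the U2 snRNP that hold it to the branch point, and PRPF proteins serve the U1 snRNP, the U4/U6.U5 tri-snRNP and the catalytic spliceosome. Many SR and hnRNP genes limit their own level through transcripts with a premature stop codon that are destroyed by nonsense-mediated decay.

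To show what stands before the genes the results turn on, promoters of 5 members are printed, each the 250 bases before the RefSeq start (RefSeq GRCm38.p6): Prpf39 and Prpf38a, the members with the smallest p-values, Hnrnpk and Sf3b1, the most abundant by CPM, and Srsf5, the most abundant member whose first promoter holds an ETS core. Capitals mark matches, on either strand, to CCGGAAG (the core bound by ETS factors), GGGCGG (the GC box), CCAAT (the CCAAT box) and TATAAA (the TATA box). In the Srsf5 promoter, 1 ETS core shares 1 base with a GC box.
Prpf39, chr12:65036084-65036333, plus strand: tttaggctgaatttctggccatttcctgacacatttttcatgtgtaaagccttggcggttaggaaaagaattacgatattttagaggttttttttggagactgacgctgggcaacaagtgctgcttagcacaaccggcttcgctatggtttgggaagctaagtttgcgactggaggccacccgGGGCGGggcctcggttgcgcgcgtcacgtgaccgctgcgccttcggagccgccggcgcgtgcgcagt
Prpf38a, chr4:108579337-108579586, minus strand: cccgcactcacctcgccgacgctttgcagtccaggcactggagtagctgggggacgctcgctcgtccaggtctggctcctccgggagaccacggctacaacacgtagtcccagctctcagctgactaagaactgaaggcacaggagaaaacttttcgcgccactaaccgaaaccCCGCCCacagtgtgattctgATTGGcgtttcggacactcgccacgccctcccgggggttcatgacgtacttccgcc
Sf3b1, chr1:55027479-55027728, minus strand: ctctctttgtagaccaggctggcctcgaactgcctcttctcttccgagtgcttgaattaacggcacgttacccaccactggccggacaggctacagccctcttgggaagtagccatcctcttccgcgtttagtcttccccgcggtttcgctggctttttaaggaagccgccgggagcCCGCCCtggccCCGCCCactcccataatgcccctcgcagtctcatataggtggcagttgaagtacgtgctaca
Hnrnpk, chr13:58402118-58402367, minus strand: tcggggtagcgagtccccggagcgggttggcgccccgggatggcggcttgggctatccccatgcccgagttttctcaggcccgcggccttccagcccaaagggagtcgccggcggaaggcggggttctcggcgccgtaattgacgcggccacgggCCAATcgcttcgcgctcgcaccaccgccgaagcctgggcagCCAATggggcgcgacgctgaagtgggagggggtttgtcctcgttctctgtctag
Srsf5, chr12:80945249-80945498, plus strand: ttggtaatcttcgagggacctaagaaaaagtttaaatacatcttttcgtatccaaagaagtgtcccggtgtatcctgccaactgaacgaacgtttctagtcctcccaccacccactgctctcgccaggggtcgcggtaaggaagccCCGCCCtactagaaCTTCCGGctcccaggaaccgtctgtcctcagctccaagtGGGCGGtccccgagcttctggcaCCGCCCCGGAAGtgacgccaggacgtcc

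These 5 stretches held 54.8%, 61.2%, 58.4%, 69.2% and 56.8% G and C, and 21, 21, 16, 30 and 17 CpG dinucleotides, in the order printed. Prpf39 had 1 GC box, Prpf38a 1 GC box and 1 CCAAT box, Sf3b1 2 GC boxes, Hnrnpk 2 CCAAT boxes, and Srsf5 3 GC boxes and 2 ETS cores. The table held 66 promoters for 49 of the 56 members. The ETS core stood in 28.8% of these, against 14.3% of the 10995 promoters of tested genes and 6.91% of all 32851 promoters. A GC box stood in 68.2% of members' promoters (56.4% of tested genes' and 32.7% of all), a CCAAT box in 50% (35.1% and 33.9%) and a TATA box in 6.06% (6.48% and 12.4%). A match is a description of the letters only, and promoters of 1 gene overlap each other.

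The libraries of sorted blood eosinophils held mRNA of nearly the whole set. The part of other cells in it was not tested. Of the 53 tested members, 51 (96.2%) were detected in all 11 libraries, against 68.8% of all genes tested, and their median level was 50.8 CPM against 21.9 CPM. The 131 other splicing genes tested, described below, were similar, at 96.9% and 47.1 CPM. The exceptions among the members were Prpf4 and Srsf9, both at 0 counts in control 3, where 3 counts would be 1.20 CPM. The 5 most abundant, Hnrnpk, Sf3b1, Hnrnpa2b1, Srsf5 and Srsf7, supplied 47.3% ± 4.75 of all splicing factor CPM in treated mice and 47.5% ± 3.50 in controls (SD, n = 7 and 4). Per kilobase of merged exon, which puts genes of different length on one scale, Hnrnpk stood first with a mean level of 124 CPM per kb over all libraries, followed by Srsf5 (95.5), Srsf7 (75.1), Hnrnpa2b1 (64.8), Sf3b1 (63.6), Sf3b6 (41.5) and Hnrnpc (39.8). Merged exons take in every annotated transcript, also those with a retained intron. Levels, shares and this order per kilobase therefore depend on the annotation. The spread between mice overlapped for several neighbours in this order: in treated libraries Srsf7 was at 67.3 ± 17.6, Hnrnpa2b1 at 62.1 ± 12.0 and Sf3b1 at 69.0 ± 14.7 CPM per kb (SD, n = 7).

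**Figure D1:**
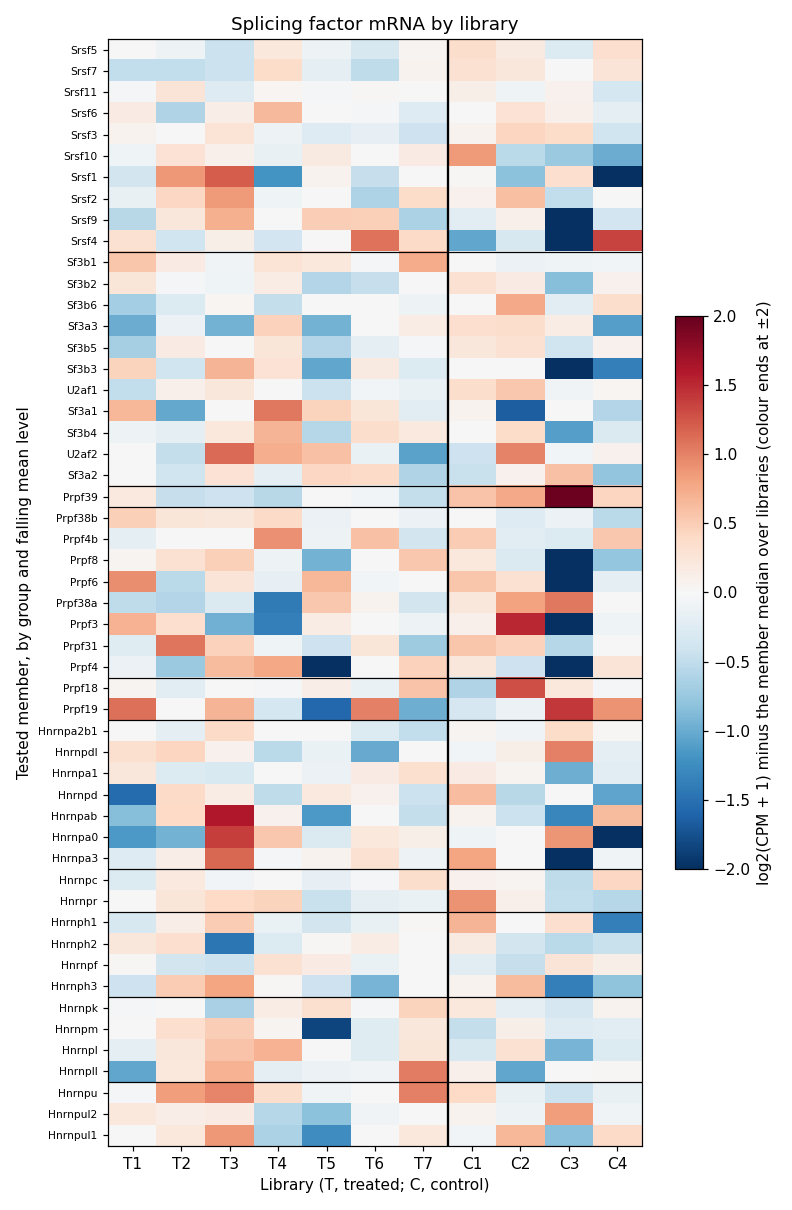
Level of tested splicing factors in each library, as log2(CPM + 1) minus the gene's median over the 11 libraries; rows are ordered by role and falling level, columns are treated mice 1 to 7 (T) and control mice 1 to 4 (C). Few rows change colour at the line between the groups; Prpf39 is the only one whose groups do not overlap, and most of the darkest blue cells lie in control 3.

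No splicing factor passed the test between treated and control mice. With edgeR's quasi-likelihood test and Benjamini-Hochberg adjustment over 11389 genes, 0 of 53 members were higher and 0 lower, and no other gene passed in either direction (0.0% of tested genes higher and 0.0% lower). The smallest adjusted p of a member was 0.626, for Prpf39. At an unadjusted p under 0.05, 0 members were higher (3.7% of all genes tested were) and 2 were lower, Prpf38a and Prpf39 (3.13% of all genes were lower). DESeq2 called 0 members higher (0.466% of its 12866 genes) and 1 lower, Prpf39 (0.171%). Treated and control libraries did not overlap for 0 members in the higher direction (0.509% of genes) and for 1 in the lower direction, again Prpf39 (0.43% of genes).

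The fold changes of the set lay close to 0. Log2 fold changes, treated minus control, were below 0 for 25 and above 0 for 28 of the 53 members, with a median of 0.03, the same to 2 decimals as the 0.03 of all genes tested. Without control 3 and control 4, 31 members were below 0, with a median of -0.06 against 0.08 for all genes. With all libraries, the median absolute size was 0.25, against 0.43 for all genes. A fold change within 0.5 of 0 on the log2 scale was found for 45 members (84.9%), against 55.9% of all genes, and 1 member, Prpf39, exceeded a size of 1 (1.89%, against 19.3% of all genes). Of the 131 other splicing genes tested, described below, 72.5% lay within 0.5 of 0 and 3.05% exceeded a size of 1. Their median absolute size was 0.31. The members also varied less between mice, with a median coefficient of variation of 31.1% in treated and 36.0% in control libraries, against 48.0% and 62.4% for all genes. The other splicing genes were much like the members in this, at 31.1% and 39.9%. Members were more abundant than the typical gene, as given above, and the part of abundance in this smaller spread was not tested.

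**Figure D2:**
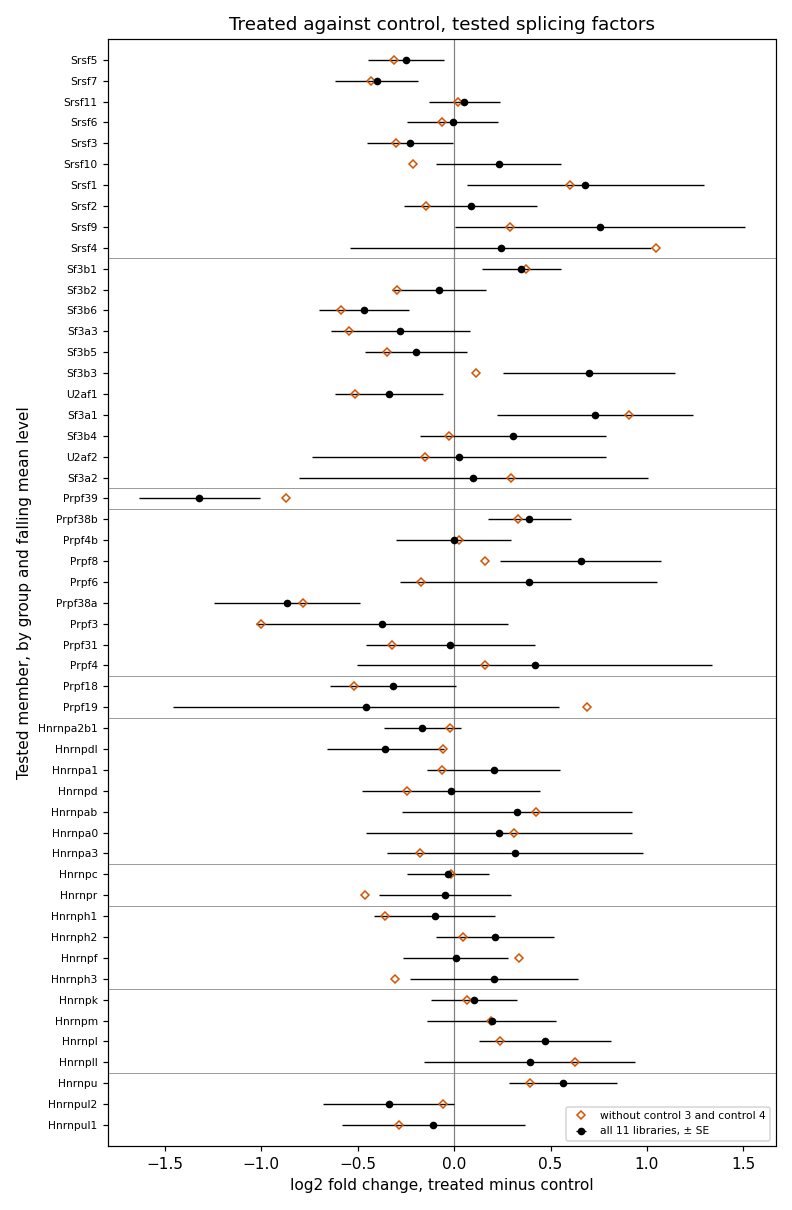
Log2 fold change (treated minus control) of tested splicing factors, grouped by role; black points with bars are the estimate ± SE from all 11 libraries, open diamonds the estimate without control 3 and control 4. Most points lie within 0.5 of 0, Prpf39 stands farthest to the left at -1.32, and its diamond lies at -0.88.

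Of the proteins that assist the U1 snRNP at the 5′ splice site, Prpf39 was the member with the greatest difference. PRPF39 is a component of U1 complexes related to a yeast U1 subunit, and its gene lies at chr12:65036333-65063386 (GENCODE M21, GRCm38). The 7 treated libraries ran from 29.6 CPM through a median of 33.0 to 50.9 CPM, while control 1 to control 4 stood at 66.1, 75.6, 175 and 60.0 CPM. Every control library thus lay above every treated one, and control 3, one of the haemoglobin-rich libraries, lay far above the other controls. The means were 37.6 ± 8.17 (SD, n = 7) and 94.3 ± 54.5 CPM (SD, n = 4). The log2 fold change was -1.32 ± 0.31 (SE), with an unadjusted p of 0.000843 and an adjusted p of 0.626 in edgeR (Benjamini-Hochberg). DESeq2 gave -1.36 with an adjusted p of 0.0279. Without control 3, the edgeR estimate was -0.81 (adjusted p = 0.648) and the DESeq2 call was lost (-0.82, adjusted p = 0.0514). Without control 3 and control 4 together, the estimates were -0.88 (edgeR, adjusted p = 0.463) and -0.89 (DESeq2, adjusted p = 0.0639). Reads of Fkbp3, a gene on the opposite strand, could be counted with Prpf39 over 5.01% of its exon bases, since the strand setting of the counts is not given in the sources used here.

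In the U2 snRNP and U2AF group, 0 of 11 tested members passed, and fold changes ran from -0.47 to 0.73 (log2). Sf3b1 encodes the large scaffold of SF3B that clasps the branch point, and its gene lies at chr1:54985169-55027481. Treated libraries spanned 609 to 1070 CPM with a median of 746, and the 4 controls lay at 643, 596, 608 and 618 CPM. The controls were thus near the bottom of the treated range, with a coefficient of variation of 3.24% against 21.4% in treated mice. The log2 fold change was 0.35 ± 0.20 (SE; edgeR adjusted p = 0.808), and it became -0.01 once an offset for transcript length was added, a shift described with the other limits. Sf3b6 encodes the small subunit next to the branch-point adenosine. Its treated range was 74.0 to 122 CPM (median 110) and control 1 to control 4 stood at 119, 203, 103 and 151 CPM, so the groups overlapped (log2 fold change -0.47 ± 0.23 SE, edgeR adjusted p = 0.734). Sf3b3, the subunit that packs against SF3B1, had 26.8 to 90.4 CPM in treated libraries (median 63.5) and 56.1, 55.9, 11.6 and 21.1 CPM in controls. The 2 low values are control 3 and control 4, and without them the log2 fold change went from 0.70 to 0.11. Sf3a1, a subunit of SF3A, had 8.85 to 40.7 CPM in treated (median 22.6) and 20.0, 5.38, 18.8 and 12.4 CPM in control mice (log2 fold change 0.73 ± 0.51 SE, edgeR adjusted p = 0.858). Sf3b2, whose product contacts the pre-mRNA near the branch point, stood at 188 ± 37.3 and 198 ± 60.7 CPM (SD, n = 7 and 4). U2af1, the 3′ splice site subunit of U2AF, stood at 35.1 ± 6.41 and 44.3 ± 8.86 CPM (SD, n = 7 and 4).

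The subunits of SF3B form one complex, so their relative mRNA levels were also set side by side. Per kilobase, Sf3b1 made up 42.8% ± 5.86 of the summed level of the 6 Sf3b genes in treated mice and 34.9% ± 6.84 in controls (SD, n = 7 and 4). Sf3b6 made up 23.1% ± 5.40 and 31.3% ± 5.07. The ranges overlapped for both, at 34.4% to 49.8% against 27.6% to 44.1% for Sf3b1 and at 15.6% to 29.1% against 25.4% to 37.4% for Sf3b6. Sf3b2 stood at 17.1% ± 2.68 and 17.9% ± 3.64, and Sf3b3 at 3.39% ± 1.28 and 1.97% ± 1.10 (SD, n = 7 and 4). These shares were not tested.

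**Figure D3:**
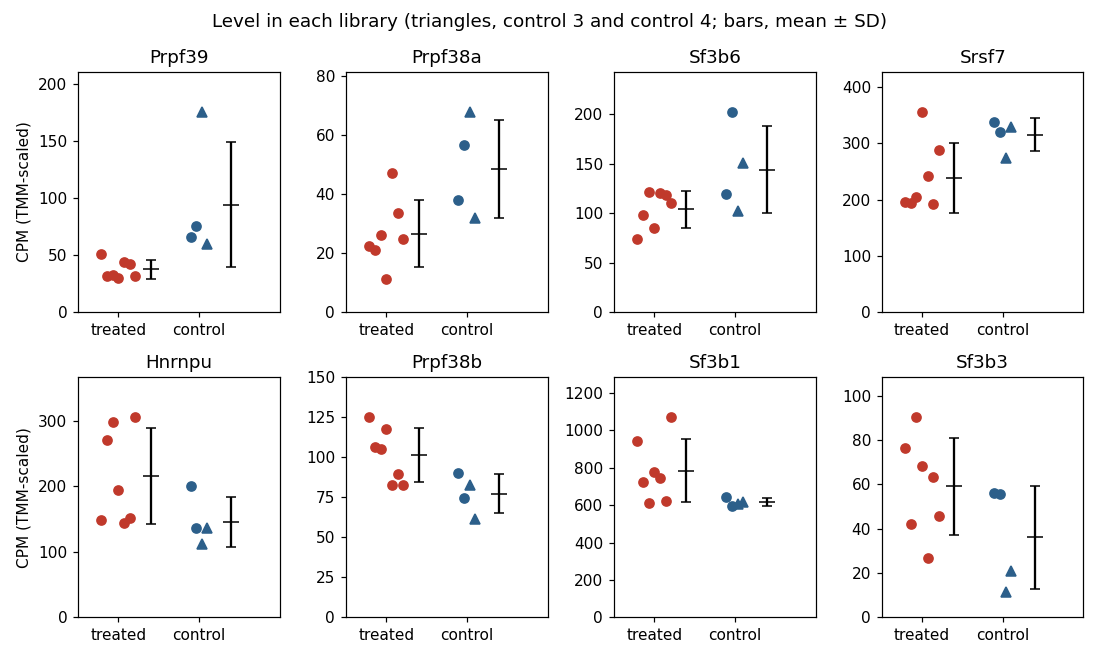
CPM (TMM-scaled) of 8 splicing factors with small unadjusted p-values in each library; red circles are treated mice, blue circles control 1 and control 2, blue triangles control 3 and control 4, and bars the mean ± SD. For Prpf39 all controls, at 60.0 CPM or more, lie above the highest treated library at 50.9 CPM, the other 7 genes overlap, and the triangles of Sf3b3 are the 2 lowest controls.

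Members of the tri-snRNP and of the precatalytic B complex included the second gene of smallest p. Prpf38a encodes a protein that joins the spliceosome before its activation (chr4:108563172-108579336). It had 11.3 to 47.1 CPM in treated libraries, with a median of 24.7, and 37.8, 56.5, 67.7 and 32.0 CPM in control 1 to control 4. The 2 highest treated libraries reached into the control range. The log2 fold change was -0.87 ± 0.38 (SE; edgeR unadjusted p = 0.0379, adjusted p = 0.693), and -0.78 without control 3 and control 4. Its paralogue Prpf38b had 82.4 to 125 CPM in treated mice (median 105) and 90.3, 74.6, 82.9 and 61.4 CPM in controls (log2 fold change 0.39 ± 0.22 SE, edgeR adjusted p = 0.787). Prpf8, the U5 protein at the heart of the catalytic centre, had 36.7 to 104 CPM in treated libraries (median 74.1) and 83.2, 58.4, 12.4 and 41.4 CPM in controls. Control 3 held the lowest value, and the log2 fold change of 0.66 became 0.16 when control 3 and control 4 were left out. Prpf4b, a kinase of the tri-snRNP, stood at 80.7 ± 28.9 and 80.9 ± 24.6 CPM (SD, n = 7 and 4).

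Control 3 had almost no counts of 3 tri-snRNP genes. Prpf6, which joins U5 to U4/U6, had 1 count there (0.401 CPM), against 36.5 to 102 CPM in treated libraries and 78.6, 66.1 and 46.2 CPM in the other controls. Prpf4, a U4/U6 protein, had 0 counts in control 3 and 17.4, 10.8 and 17.8 CPM in the other controls. Prpf3, its partner in U4/U6, had 1.60 CPM in control 3 and 26.0, 71.2 and 22.9 CPM in the others. These 3 genes were chosen after their values were seen. Other members of the tri-snRNP and B complex group were mixed in control 3. Prpf38a had its highest level of all libraries there, at 67.7 CPM. Prpf38b stood at 82.9, Prpf4b at 58.1 and Prpf8 at 12.4 CPM. In control 3, 17.5% of all tested genes were also at 0, and it was the lowest of the 11 libraries for 16 of 53 members (30.2%) and for 20.8% of all tested genes.

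The 2 members of the catalytic complexes overlapped between groups. Prpf18, a second-step factor, had 54.0 ± 10.8 CPM in treated mice and 67.3 ± 40.8 CPM in controls (SD, n = 7 and 4), with control 2 at 126 CPM. Prpf19, a ubiquitin ligase that gives its name to a complex of the active spliceosome, was low, at 3.61 ± 2.79 and 4.99 ± 3.37 CPM (SD, n = 7 and 4). Across all 12 tested Prpf genes, 8 had a log2 fold change below 0 and 4 above, with a median of -0.01.

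Among the SR proteins, 0 of 10 passed and fold changes ran from -0.40 to 0.76 (log2), 4 below 0 and 6 above. Srsf7, which binds purine-rich exonic sites and also guides polyadenylation and export, had 193 to 356 CPM in treated libraries with a median of 204, and 338, 321, 274 and 329 CPM in controls. Of the 7 treated libraries, 5 lay below all controls and 2 reached into or past their range (log2 fold change -0.40 ± 0.22 SE, edgeR adjusted p = 0.767). Srsf5, the most abundant SR gene by both CPM and CPM per kb, stood at 357 ± 53.7 and 424 ± 79.4 CPM (SD, n = 7 and 4). It made up 34.1% ± 3.52 of the summed Srsf level per kb in treated mice and 36.5% ± 3.86 in controls, and Srsf7 25.4% ± 3.97 and 30.8% ± 1.40 (SD, n = 7 and 4). Srsf11, a U2AF-interacting SR protein, was the steadiest member in treated mice, at 156 ± 16.1 and 150 ± 21.5 CPM, with coefficients of variation of 10.3% and 14.3%. Srsf10, a regulator of splicing in heat shock and mitosis, combined a coefficient of variation of 10.9% in treated mice with 69.0% in controls, where its levels were 134, 50.1, 43.7 and 36.4 CPM. Srsf1, the founding member, reached 20.4 to 112 CPM in treated libraries and 48.7, 26.6, 60.9 and 2.91 CPM in controls, the last in control 4. Srsf10 and Srsf1 were picked out after their values were seen. Counts of Srsf4 and Srsf2 can include reads of antisense genes over 43.0% and 25.3% of their exon bases.

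Of the hnRNP genes, 0 of 20 passed, and 19 of 20 had a fold change within 0.5 of 0 on the log2 scale, 8 below 0 and 12 above. Hnrnpu, which encodes the scaffold attachment factor SAF-A, was the 1 member outside that band. It had 144 to 306 CPM in treated libraries (median 194) and 200, 136, 112 and 136 CPM in controls, with a log2 fold change of 0.56 ± 0.28 (SE; edgeR adjusted p = 0.734). All treated libraries exceeded 3 of the 4 controls and overlapped with control 1. The estimate became 0.24 with the offset for transcript length. It became 0.02 with the letters of the sample identifiers as a covariate, where only treated 1 is set against controls. Its relatives Hnrnpul1 (19.4 ± 8.71 and 20.8 ± 8.78 CPM) and Hnrnpul2 (28.6 ± 7.31 and 36.3 ± 12.8 CPM; SD, n = 7 and 4) were lower in both groups, also per kb of exon.

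Hnrnpk, the KH-domain protein that binds C-rich RNA (chr13:58391142-58403343), was the most abundant member, with 501 to 1070 CPM in treated libraries (median 786) and 909, 694, 626 and 823 CPM in controls. All controls lay inside the treated range, and the means were 821 ± 182 and 763 ± 127 CPM (SD, n = 7 and 4). Hnrnpl, which binds CA repeats, stood at 36.9 ± 9.55 and 26.5 ± 9.54 CPM and Hnrnpm at 132 ± 48.9 and 116 ± 20.0 CPM (SD, n = 7 and 4). Exons of March2 overlap 14.7% of the exon bases of Hnrnpm, so reads there could be shared. The 4 tested members of the K, L and M group all had fold changes above 0 (log2 0.10 to 0.47), and none passed the test. Over all genes tested, 5900 of 11389 were above 0. The hnRNP C and R group and the U1-associated and catalytic PRPF groups each had 2 of 2 below 0. With the offset for transcript length, 2 of the 4 K, L and M genes were below 0, in a fit where 6742 of all 11389 genes tested were below 0.

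In the A, B and D group, fold changes ran from -0.36 to 0.33 (log2) over 7 members. Hnrnpa2b1 stood at 409 ± 79.0 and 459 ± 63.9 CPM, Hnrnpdl at 101 ± 31.5 and 130 ± 55.1 CPM and Hnrnpa1 at 27.4 ± 4.74 and 23.7 ± 7.65 CPM (SD, n = 7 and 4). Hnrnpa1 was thus lower than Hnrnpa2b1 in every library, by CPM and also per kb of exon. Reads of the many processed copies of Hnrnpa1 may have been left out or shared by the authors' counting, so its level is uncertain. Hnrnpc, a component of the core hnRNP particle that binds uridine tracts, stood at 171 ± 26.0 and 175 ± 43.5 CPM (SD, n = 7 and 4). Hnrnpr stood at 40.8 ± 9.46 and 42.0 ± 22.0 CPM (SD, n = 7 and 4). In the G-tract-binding F and H group, Hnrnph1 stood at 138 ± 31.2 and 148 ± 71.6 CPM, Hnrnph2 at 80.2 ± 24.9 and 69.1 ± 17.0 CPM and Hnrnpf at 44.3 ± 8.13 and 44.2 ± 9.99 CPM (SD, n = 7 and 4). Counts of Hnrnpf can include reads of antisense genes over 26.5% of its exon bases.

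With the letters of the sample identifiers as a covariate, the treatment estimate rests on treated 1 alone against the controls. Several of these estimates moved by over 1.5 times in that fit. On the log2 scale, those of Sf3b6 went to -0.96, Srsf7 to -0.70, Prpf38b to 0.69, Sf3b1 to 0.61, Sf3b3 to 1.07 and Sf3a1 to 1.11. Prpf39 went to -0.89. In treated 1, the treated library with the letters of the controls, it stood at 50.9 CPM against 60.0 CPM or more in controls. The offset for transcript length moved Prpf38b to 0.08, Sf3b3 to 0.44 and Sf3a1 to 0.41.

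Summed over each family, treated and control libraries overlapped. Srsf genes summed to 1168 ± 106 CPM in treated mice and 1276 ± 137 CPM in controls, Hnrnp genes to 2391 ± 208 and 2306 ± 201 CPM, Sf3a, Sf3b and U2af genes to 1337 ± 183 and 1214 ± 144 CPM, and Prpf genes to 617 ± 54.7 and 644 ± 83.5 CPM (SD, n = 7 and 4). All 56 members together reached 4913 to 6173 CPM in treated libraries and 6061, 5589, 4972 and 5139 CPM in control 1 to control 4. The low sums of control 3 and control 4 on this TMM scale stood within the treated range.

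**Figure D4:**
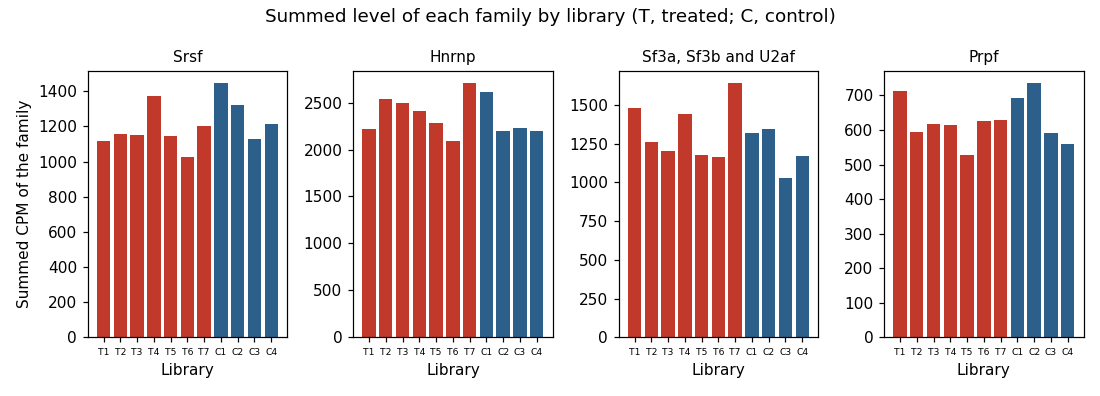
Summed CPM (TMM-scaled) of the Srsf, Hnrnp, Sf3a/Sf3b/U2af and Prpf genes in each library, red for treated mice 1 to 7 (T) and blue for control mice 1 to 4 (C). Bars of both colours reach similar heights in all 4 panels, with Hnrnp genes at 2095 to 2703 CPM in treated mice and 2193 to 2607 CPM in controls.

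Transcripts marked for nonsense-mediated decay were common in the annotation of these genes. GENCODE M21 lists at least 1 such transcript for 28 of the 53 tested members (52.8%), against 27.6% of all genes tested and 30.7% of the protein-coding ones. For SR genes the number was 9 of 10, with Srsf10 the exception, and for Sf3a and Sf3b genes 1 of 9, Sf3b1. Transcripts with a retained intron are listed for 73.6% of members, against 56.5% of all genes tested and 62.1% of the protein-coding ones. The 131 other splicing genes tested, described below, share this annotation. A transcript marked for decay is listed for 45.8% of them and one with a retained intron for 79.4%. The counts are per gene, so they do not tell these transcripts from coding ones, and a change in splicing or in decay was not measured.

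No other listed gene of the pathway passed the test. Of 132 listed genes, 131 were tested, and 0 passed in either direction in edgeR with Benjamini-Hochberg adjustment. Their median log2 fold change was 0.02, with 64 below 0 and 67 above. At an unadjusted p under 0.05, 5 were higher, namely Aqr, Celf1, Scaf11, Sfpq and Upf3a, and 4 were lower, namely Cirbp, Eif4a3, Snrpd2 and Snrpg, which is near the 3.7% and 3.13% of all genes tested. Aqr, Upf3a, Snrpd2 and Snrpg were named after their values were seen. Scaf11, an SR-related protein, had 66.6 to 104 CPM in treated libraries (median 80.8) and 61.6, 62.5, 37.3 and 56.3 CPM in controls, so the groups did not overlap (log2 fold change 0.63 ± 0.23 SE, edgeR adjusted p = 0.626). Cirbp, the cold-inducible RNA-binding protein, had 42.8 to 127 CPM in treated mice (median 63.4) and 156, 118, 94.6 and 120 CPM in controls (log2 fold change -0.78 ± 0.29 SE, edgeR adjusted p = 0.626). Eif4a3, the helicase of the exon junction complex, stood at 90.1 ± 22.1 and 132 ± 7.91 CPM, with an adjusted p of 0.634 in edgeR. Sfpq stood at 47.9 ± 16.9 and 24.6 ± 11.2 CPM and Celf1 at 99.2 ± 30.8 and 51.9 ± 30.8 CPM (SD, n = 7 and 4), and for Celf1 the log2 fold change of 0.93 became 0.50 without control 3 and control 4. With the identifier letters as a covariate, only treated 1 is set against controls. The log2 fold changes were then 0.29 for Scaf11, 0.58 for Celf1, -0.30 for Eif4a3 and 0.39 for Sfpq. With the offset for transcript length, that of Scaf11 was 0.34. The RNA helicase Ddx5 was the most abundant gene of the list, at 2668 ± 683 and 2466 ± 350 CPM. Clk1, the kinase that phosphorylates SR proteins, stood at 475 ± 144 and 569 ± 166 CPM, Syf2 at 250 ± 67.6 and 270 ± 65.5 CPM and Puf60, a U2AF-related protein, at 231 ± 58.5 and 207 ± 55.4 CPM (SD, n = 7 and 4).

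The genes for the Sm and Lsm ring proteins, which encircle the spliceosomal snRNAs, had fold changes mostly below 0. Of 13 tested, 11 had a log2 fold change below 0, with a median of -0.33, and 0 passed the test. Over all genes tested 48.2% were below 0, and in the other 5 splicing lists the share ran from 39.1% to 51.9%. The Sm and Lsm list was singled out after these values were seen. Without control 3 and control 4, all 13 were below 0, with a median of -0.68. With the offset for transcript length, 10 were below 0, in a fit where 6742 of all 11389 genes tested were below 0. Snrpb, the most abundant, had 219 to 342 CPM in treated libraries (median 237) and 302, 322, 325 and 318 CPM in controls. Snrpg did not overlap between groups, though narrowly, with 9.60 to 18.25 CPM in treated mice and 18.26, 48.3, 23.2 and 22.5 CPM in controls. These genes have short transcripts, with a median merged exon length of 2052 bases against 4209 for all genes tested. Across the 131 other splicing genes, fold change and exon length had a Spearman correlation of 0.35, across the 53 members one of 0.05, and across all genes tested one of 0.18; genes of one fit share libraries and scaling and are not independent.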

How the data were processed

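Raw counts for each Ensembl gene in 11 libraries were deposited as 1 table. The submitters' processing notes name SAMtools 1.15.1, HISAT2 2.10, bcl2fastq 2.20.0.422 and the build GRCm38. The read counter, its strand setting and the gene annotation were not given in the sources used here. A row that names no gene held 0 counts. No 2 libraries were duplicates.

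Counts were tested with edgeR 4.0.16 (R 4.3.3; quasi-likelihood test, robust, TMM, filterByExpr, Benjamini-Hochberg over 11389 genes, threshold 0.05), with no covariate. The standard error is the absolute log2 fold change before edgeR's shrinkage, divided by the root of F. The log2 fold changes printed for edgeR are those after shrinkage. Alternatives were DESeq2 1.42.0 and its size factors, limma 3.58.1 (voom with quality weights), other filters, covariates, offsets and left-out libraries. Exon lengths are merged exons of GENCODE M21, to which 55226 genes matched. The script was tested on simulated counts. The common biological coefficient of variation was 0.828. Reads carried no molecular identifiers, so the limit of 3 counts for a count of 0 covers counting error only.

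The members and lists were chosen with earlier results of these data known. Named were the 3 most abundant tested members of each role group, the 10 members of smallest p, those whose groups do not overlap, and of the other splicing lists the most abundant gene of each and the 5 of smallest p. Python 3.11.15 and scipy 1.17.1 were used for tables. Values of 1 member are not reported here.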

Additional observations from a re-analysis of the deposited data

Results flagged for a closer look

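Among 80 sets of libraries (40 named genes, treated and control mice apart), 5 held 1 library far from the rest of its group; chance gives about 1 in 20. Of these, 4 are in control 3 or control 4, the haemoglobin-rich libraries. Prpf39 stood at 175.5 CPM in control 3, while the other controls were at 60.0 to 75.6 CPM, and Hnrnpul2 at 55.29 CPM in control 3 against 28.6 to 32.3 CPM. In control 4, Clk1 stood at 816.8 CPM against 471 to 518 CPM in the other controls, and Syf2 at 367.5 CPM against 227 to 247 CPM. Prpf18 reached 76.67 CPM in treated 7, with 44.1 to 56.1 CPM in the other treated mice.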

How the results depend on the processing

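Over 23 alternatives, 2 of them chosen after seeing the data (DESeq2 without control 3 and without both haemoglobin-rich controls), no member was called higher, and a member was called lower in 1 of them: DESeq2 called 1, Prpf39 (log2 fold change -1.36). Over all settings the log2 fold change of Prpf39 stayed between -1.79 and -0.81. DESeq2 called 60 genes of the genome higher and 22 lower, 158 and 14 without control 3, and 401 and 48 without both haemoglobin-rich controls. In that last setting it called 1 of the 131 other splicing genes higher, Mbnl2. With 401 genes of the genome called higher there, this 1 call is not read as a result about the list. In each of their settings edgeR and limma called 0 genes. The offset for transcript length moved the median log2 fold change of the members to -0.17, and that of all tested genes to -0.14, and turned Sf3b1, whose merged exons span 11370 bases, to -0.0148. The labels give both groups replicate numbers 1 to 4. Deviations of same-numbered libraries correlated at -0.03, 0.02, -0.12 and -0.04, and no treated library correlated best with the control of its own number. These values gave no sign that the numbers pair samples, though so few libraries cannot exclude a weak pairing. With the replicate block the median of the members was 0.13, that of all tested genes also 0.13, and 0 genes passed. Without the erythroid and platelet marker genes, edgeR gave a median of 0.07 for the members and 0.05 for all tested genes. In that fit 21 members were below 0, Prpf39 stood at -1.30, and 0 genes passed. Other RNA of those cells stayed in the counts. Depth sets the limit of 3 counts at 0.354 to 1.20 CPM per library.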

Other observations

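Mbnl2, a regulator of alternative splicing, stood at 105 to 184 CPM in treated libraries and at 59.0, 50.2, 205 and 130 CPM in control 1 to control 4. It was picked out after its values were seen. Against control 1 and control 2 alone the log2 fold change was 1.43 ± 0.30 SE in DESeq2, with an adjusted p of 0.000294, while against all 4 controls edgeR gave 0.39 (adjusted p = 0.912, Benjamini-Hochberg). These estimates differ in the test as well as in the controls. Without control 3 and control 4, edgeR called 0 of 13012 genes. With all 4 controls, DESeq2 called 0 other splicing genes higher. The part of the erythroid and platelet transcripts of control 3 and control 4 in the Mbnl2 values was not tested.

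Treated 3 held the highest level of the 11 libraries for 12 of the 53 tested members (22.6%), against 10.4% of all tested genes. Treated 5 and treated 6 held the highest level for 0 members each, against 6.99% and 6.28% of all tested genes.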
